A study of Mus musculus with 4 samples.

Results

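The genes described here are 9 markers of the dental epithelium outside the enamel matrix: the keratins Krt5, Krt14, Krt15 and Krt17, the adhesion genes Cdh1, Epcam and Dsp, and the transcription factor genes Trp63 and Sox2. They were taken by symbol from a table of 55487 mouse genes, and each of the 9 matched 1 row. Transcripts of 8 of them were counted in every library, whereas Sox2 had no count in any. The cells came from lower incisors of mice labelled C57 at postnatal day 30, and per the labels' protocols the sort kept those without CD45, Ter119 or Tie2, which mark leukocytes, red cell precursors and endothelium. Controls (WT) had the genotype Ptipf/f without Cre, and knockouts (KO) had Ptipf/f;Sp7-cre, with 2 libraries in each group. All 4 libraries thus share the floxed Ptip alleles, and the controls carry no Cre, so effects of losing Ptip and of carrying the transgene cannot be told apart. Sp7, which drives the Cre, is a gene of the bone and odontoblast lineages. The labels do not say whether a library came from 1 animal or several, so p-values reflect only how far these samples spread, which may be technical.

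The rodent incisor grows throughout life, and at its root end the cervical loop holds epithelial stem cells that feed the enamel-forming ameloblasts. Epithelial cells are held together by E-cadherin at adherens junctions and by desmosomes, and desmosomes anchor a scaffold of keratin filaments. Each keratin filament is built from pairs of an acidic type I and a basic type II keratin, such as keratin 14 with keratin 5 in basal cells. The factor p63, encoded by Trp63, maintains stratified epithelia, and SOX2 is known as a marker of the incisor's epithelial stem cells.

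Library totals ran from 15154246 to 19142757 counts. Paxip1, the gene of PTIP, was counted 407 and 696 times in the 2 controls, against 111 and 71 times in the 2 knockouts. The tissue label is dental pulp, yet Ambn, an enamel matrix gene of ameloblasts, stood at 18171 to 52583 CPM (counts-per-million, scaled by TMM normalisation factors) over the 4 libraries. Markers of cells that the sort should remove were counted too, and most were lower in the knockouts. Of 8 tested leukocyte markers, 8 had both knockouts below both controls (24.9% of all tested genes did), with a summed level of 1883 to 5106 CPM in controls and 210 to 838 CPM in knockouts. Cd3e, a T cell gene, was at 0 in every library. Of 8 erythroid markers 7 were lower (472 to 553 against 101 to 142 CPM), and of 7 endothelial markers 3 were lower (553 to 913 against 417 to 449 CPM). The endothelial count was 7 without control 1 and 3 without control 2, though fewer libraries make a separation easier. The median log2 fold change (knockout over control) of the endothelial markers was -0.63, and -0.09 without control 2. Tek, the gene of Tie2, overlapped between groups, at 21.7 and 81.2 CPM in controls and 44.8 and 41.8 CPM in knockouts. The part of these cells in the differences below was not tested.

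The 3 type I keratins lie close together on chromosome 11 and share sequence, which bears on how reads could be assigned. A coding stretch of 60 bases in exon 1, at the start of the conserved rod, is shown for them and for their neighbour Krt16, from the GENCODE M21 transcripts on GRCm38. Capitals mark bases that differ from Krt14, and each line reads 5′ to 3′ along the coding strand, which is the minus strand of the genome.
Krt14: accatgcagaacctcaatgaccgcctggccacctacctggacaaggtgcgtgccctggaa
Krt16: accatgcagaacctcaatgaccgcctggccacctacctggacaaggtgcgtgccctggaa
Krt17: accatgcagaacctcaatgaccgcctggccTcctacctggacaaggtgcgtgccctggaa
Krt15: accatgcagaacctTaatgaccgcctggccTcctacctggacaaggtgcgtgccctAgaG
The stretch lies at chr11:100207027-100207086 in Krt14, chr11:100248486-100248545 in Krt16, chr11:100260648-100260707 in Krt17 and chr11:100135499-100135558 in Krt15. Krt16 was identical to Krt14 there, Krt17 differed at 1 base and Krt15 at 4. This stretch was chosen as the one that the 3 other genes match best.

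Over the whole transcript the overlap was smaller. Of all 50-base windows of the Krt14 transcript, 14.4% also occurred in a transcript of another gene, mostly Krt16 (11.4%). The longest identical coding run that Krt14 shared was 134 bases with Krt16, 71 with Krt17 and 28 with Krt15. For Krt5, a type II keratin, 12.2% of 50-base windows were shared, most often with Krt6a (6.98%). The share was 3.99% for Krt17 and 0.666% for Krt15. For Cdh1, Epcam, Trp63 and Sox2 it was 0%. For Dsp, 4.72% of windows were shared, all with Gm10129, a gene annotated on the opposite strand over the Dsp start that had 0 counts in 3 libraries and 4 in knockout 2. Krt5 also overlaps an annotated antisense miRNA gene, Gm44323, which had 0 counts throughout. The share depends on the window: it was 30.1% at 30 bases and 2.88% at 100 bases for Krt14. For Krt5 it was 16.2% and 3.81%, for Krt17 16.8% and 0%, and for Dsp 4.91% and 4.21%. Read length and the treatment of reads with several matches were not given in the labels. The counts of Krt14, Krt16, Krt17, Krt5 and Dsp are therefore uncertain to an extent that is not known.

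Among the keratins, Krt14 was the most abundant member in every library. Krt14 encodes the type I keratin of basal epithelial cells (ENSMUSG00000045545, chr11:100203162-100207548, minus strand). Control 1 held 7388 of its counts, control 2 held 3703, knockout 1 held 3051 and knockout 2 held 4081. That is 514 and 236 CPM against 156 and 229 CPM (375 ± 197 against 193 ± 51.2, SD, n = 2 each). Both knockouts were below both controls, but knockout 2 and control 2 were close, and the controls differed from each other by 2.18-fold. The log2 fold change of Krt14 (knockout over control) was -0.96 with a 95% interval from -2.05 to 0.13, and it did not pass edgeR's quasi-likelihood test (adjusted p = 0.350). Without control 1 the value was -0.27.

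Krt5, the type II partner of keratin 14 (ENSMUSG00000061527, chr15:101707070-101712898, minus strand), gave 48.1 and 26.9 CPM in controls and 14.7 and 30.2 CPM in knockouts. The groups overlapped, since knockout 2 was above control 2. Its log2 fold change was -0.74 (interval -1.94 to 0.46, edgeR adjusted p = 0.519), and -0.24 without control 1. Of all pairs among the 8 tested members, Krt5 and Krt14 had the most similar profiles over the 4 libraries. Their distance, taken between log2 CPM values centred per gene, was 0.41, while the other 27 pairs lay between 0.94 and 3.93. Per kilobase of exon, the level of Krt14 was 9.48 to 13.3 times that of Krt5 in the 4 libraries.

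Krt17 and Krt15 did not follow Krt14. Krt17, a type I keratin of epithelial appendages and of stressed epithelium (ENSMUSG00000035557, chr11:100256217-100261029, minus strand), had 106 CPM in control 1 and 11.8 CPM in control 2. The knockouts had 42.0 and 19.6 CPM. Both knockouts thus lay between the controls, which were 8.99-fold apart. The log2 fold change of Krt17 was -0.93 (interval -3.10 to 1.23, edgeR adjusted p = 0.668), and it turned to 1.42 without control 1.

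Krt15, a type I keratin of basal cells that also marks stem cells of the hair follicle (ENSMUSG00000054146, chr11:100131758-100135928, minus strand), showed the opposite order within each group. It had 5.15 and 17.2 CPM in controls 1 and 2, and 3.18 and 9.14 CPM in knockouts 1 and 2. The log2 fold change of Krt15 was -0.86 (interval -2.75 to 1.02, edgeR adjusted p = 0.645), and it was 0.24 without control 2. The level of Krt17 per kilobase was 23.4% and 5.66% of that of Krt14 in controls 1 and 2, against 30.4% and 9.72% for knockouts 1 and 2. For Krt15 the corresponding shares were 0.997% and 7.28%, and 2.02% and 3.97%. In both groups, the library numbered 1 held more Krt17 and less Krt15 relative to Krt14 than the library numbered 2. The labels attach no meaning to these numbers beyond naming the replicate.

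**Figure D1:**
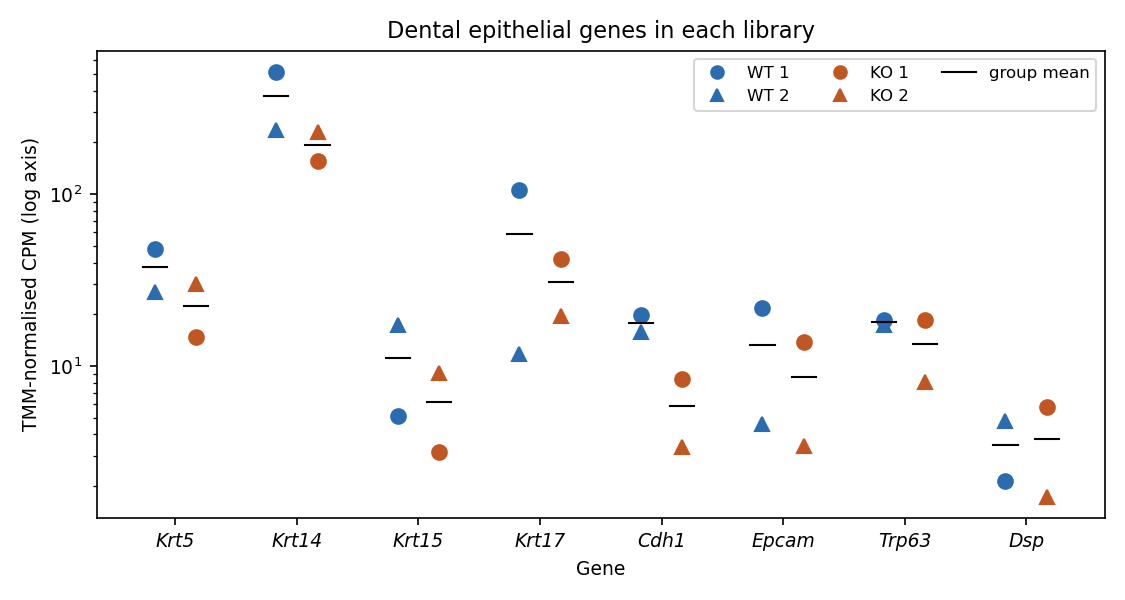
TMM-normalised CPM (log axis) of the 8 detected genes in each library, with controls (WT) in blue, knockouts (KO) in orange and black bars at the group means. Krt14 spans 156 to 514 CPM, and its knockouts and those of Cdh1 lie below both controls, while the groups overlap for the other 6 genes.

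Cdh1 was the member with the lowest knockout level relative to control. It encodes E-cadherin, the main cadherin of epithelial adherens junctions (ENSMUSG00000000303, chr8:106603351-106670246, plus strand). Controls gave 284 and 248 counts against 163 and 60 for the knockouts, or 19.7 and 15.8 against 8.35 and 3.36 CPM. The controls differed by 1.25-fold and the knockouts by 2.48-fold, and the groups did not overlap. The fitted level was 3.03-fold lower in the knockout (17.8 ± 2.80 against 5.86 ± 3.53 CPM, SD, n = 2 each), a log2 fold change of -1.60 with an interval from -3.00 to -0.20. This difference did not pass after adjustment over all genes (adjusted p = 0.240 in edgeR and 0.0897 in DESeq2). When single libraries were left out, its log2 fold change ranged from -2.39 (without knockout 1) to -1.04 (without knockout 2). Leukocyte and erythroid markers moved with the same groups, as given above. In these bulk libraries, fewer cells of a type and less RNA per cell cannot be told apart.

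Epcam, which encodes an adhesion molecule at the surface of simple and progenitor epithelia (ENSMUSG00000045394, chr17:87635979-87651129, plus strand), had 21.8 and 4.58 CPM in controls and 13.8 and 3.42 CPM in knockouts. The high libraries were control 1 and knockout 1, so the spread within each group (4.75-fold and 4.03-fold) exceeded the difference between groups. The log2 fold change of Epcam was -0.61 (interval -2.77 to 1.54, edgeR adjusted p = 0.799). It turned to 0.94 without control 1 and to 0.11 without knockout 2. The profile of Epcam was closest to that of Krt17 among the members (distance 0.94) and far from that of Krt15 (3.72).

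Dsp encodes desmoplakin, which links keratin filaments to desmosomes (ENSMUSG00000054889, chr13:38151294-38198577, plus strand). With 31 to 113 counts per library it was the lowest of the detected members. It had 2.16 and 4.77 CPM in controls and 5.79 and 1.74 CPM in knockouts, and the knockouts enclosed both controls. Its log2 fold change was 0.12 (interval -2.02 to 2.25, edgeR adjusted p = 0.969). The sign of Dsp changed with single libraries, from -0.98 without knockout 1 and -0.31 without control 1 to 0.75 without control 2 and 0.78 without knockout 2.

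Trp63, the gene of p63 (ENSMUSG00000022510, chr16:25683763-25892102, plus strand), was level in 3 of the 4 libraries. It had 18.6 and 17.3 CPM in controls, 18.6 CPM in knockout 1 and 8.07 CPM in knockout 2. The log2 fold change of Trp63 was -0.43 (interval -1.68 to 0.82, edgeR adjusted p = 0.747). It was 0.10 without knockout 2.

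Sox2, a gene with a single exon (ENSMUSG00000074637, chr3:34650405-34652461, plus strand), is listed at 0 counts in all 4 libraries. A count of 0 allows up to 3 counts, which is 0.154 to 0.209 CPM depending on the library, and covers counting error only. Sox2 was therefore not detectable at this depth in either group, and no difference could be tested. Sox2ot, a non-coding gene that spans Sox2 on the same strand without sharing exon bases with it, had 1 and 12 counts in controls against 1 and 9 for the knockouts. Sox10, a related factor of Schwann and neural crest cells, had 16 to 45 counts per library.

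Levels were compared between members per kilobase of exon. Krt14 led in each library with 88.9 to 292 CPM per kilobase, and Dsp was the lowest detected member with 0.180 to 0.60. The ranges of Krt17 (7.59 to 68.2) and Krt5 (6.70 to 21.9) overlapped, as did those of Epcam (1.56 to 9.91) and Krt15 (1.80 to 9.76). Cdh1 (0.735 to 4.32) and Trp63 (0.962 to 2.22) also overlapped. The order of these neighbours is therefore not set beyond their spread. By mean CPM per kilobase, Krt14 ranked 238 among the 17128 tested genes, Krt17 ranked 1997, Krt5 ranked 4076 and Dsp ranked 15538. Coverage along the transcripts was not examined, so these ranks compare counts per kilobase, not numbers of transcripts.

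Of the 9 members, 8 passed the filter on low counts and were tested, and edgeR called 0 of them at an adjusted p of 0.05. Over all tested genes it called 0%. At an unadjusted p under 0.05 there was 1 member, Cdh1, where 17.2% of all tested genes lay. DESeq2, which called 8.42% of the genes it gave an adjusted p, called 0 members. limma-voom also called 0 members, but it called 0 of all tested genes. Both knockouts were below both controls in 2 members (Krt14 and Cdh1), against 24.9% of all tested genes, and above both in 0 members, against 25.8%. A count of 2 in 8 is thus at the background share. The median log2 fold change was -0.80 for the tested members and 0.00 over all tested genes. Of the 8 members 7 had negative values, as did 8542 of all 17128 tested genes. This lean depended on control 1. Without it, Krt17 and Epcam turned to 1.42 and 0.94, and Krt5 and Krt14 were at -0.24 and -0.27. Trp63 and Dsp were then at -0.35 and -0.31, and Cdh1 and Krt15 at -1.40 and -1.47. The median of the members was not computed with libraries left out.

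**Figure D2:**
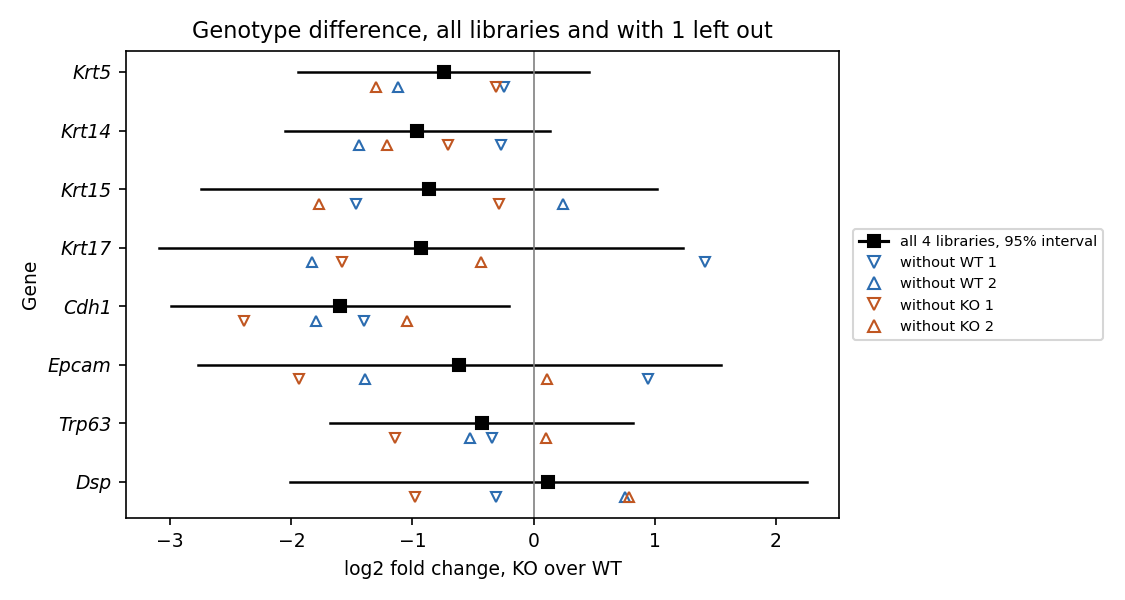
Log2 fold change, knockout over control, of the 8 tested genes, as a black square with its 95% interval for all 4 libraries and as open triangles with 1 library left out. The interval of Cdh1 (-3.00 to -0.20) is the only one that does not include 0, and triangles lie on both sides of 0 for Krt15, Krt17, Epcam, Trp63 and Dsp.

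The tested members had different profiles over the libraries rather than a single epithelial one. Krt14 and Krt5 were highest in control 1 and lowest in knockout 1. Krt17 and Epcam were higher in the libraries numbered 1 than in those numbered 2, in both groups, and Krt15 was higher in those numbered 2. The most distant pair was Krt15 and Krt17 (distance 3.93). Cdh1, Trp63 and Dsp had in common that knockout 2 was their lowest library, as it was for Epcam. The 3 other tested genes nearest to Krt14 were Trmo, Lrrc75a and Sh3bp2 (distances 0.09 to 0.15 over 4 libraries), and those nearest to Cdh1 were Slc37a1, Igkv3-12 and Arntl (0.08 to 0.12). With 4 libraries, many genes can share such a profile.

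**Figure D3:**
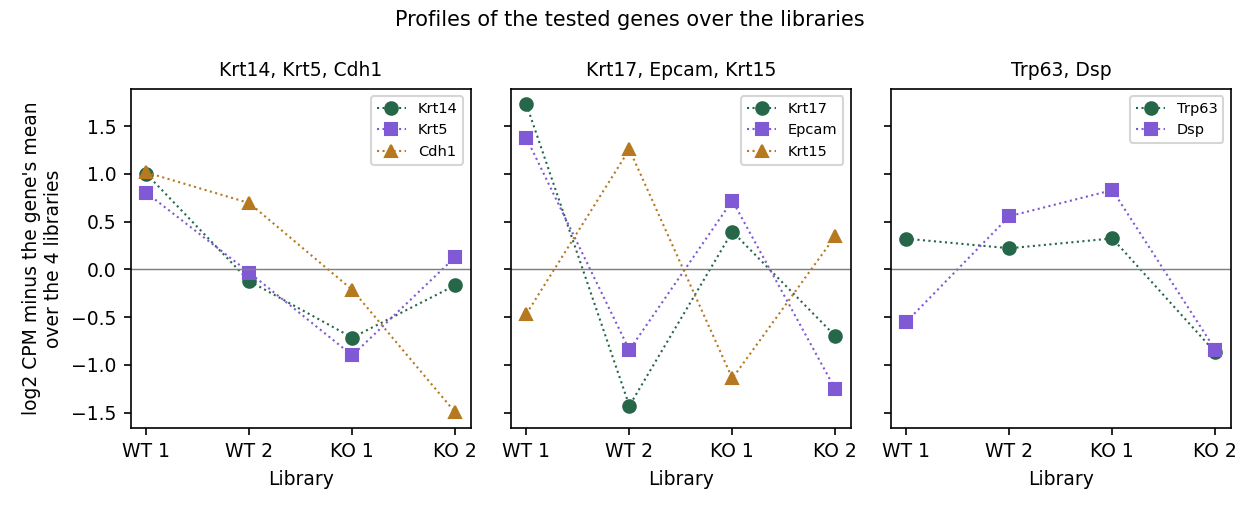
Log2 CPM of the 8 tested genes in each library minus the gene's own mean over the 4 libraries, in 3 panels; dotted lines only join the points of a gene. Krt14 and Krt5 nearly coincide, Krt17 and Epcam peak in control 1 and knockout 1, and Krt15 peaks in control 2.

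Most of the other keratins had lower fitted levels in the knockouts, with 12 of 13 tested values negative. Over all tested genes, 8542 of 17128 were negative. Of 17 further epithelial keratins 13 were tested. Both knockouts were below both controls in 6, against 24.9% of all tested genes, and above in 0, against 25.8%. Without control 1 the count below was 10, but fewer libraries make a separation easier. The median log2 fold change of this list was -1.39, edgeR called 0 and DESeq2 called 3 lower. Krt6a, a type II keratin of wounded and appendage epithelium, stood at 15.7 and 15.5 CPM in controls and 5.48 and 3.70 CPM in knockouts (adjusted p = 0.183 in edgeR and 0.0392 in DESeq2). Krt1, a keratin of cornifying cells, had 17 and 31 counts in controls against 1 and 0 for the knockouts. The simple epithelial keratin genes overlapped between groups. Krt8 stood at 15.8 and 5.09 against 17.4 and 5.72 CPM, and Krt18 at 22.2 and 6.81 against 7.23 and 5.55 CPM. Krt19 had 21 or fewer counts in each library. Over the 9 type I and 12 type II keratins of these lists, the summed level per kilobase of type I was 4.72 to 9.55 times that of type II in the 4 libraries. Krt14 made up 69.6% to 83.7% of the type I sum, and Krt5 32.5% to 71.3% of the type II sum.

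Genes of desmosomes and hemidesmosomes, the junctions that hold keratin filaments, leaned the same way as Cdh1. Of 20 tested genes, both knockouts were below both controls in 14, against 24.9% of all tested genes, and above in 3, against 25.8%. The list was chosen with earlier results of these data known. Its genes were read from the same 4 libraries, so they are not independent of each other. The list median was -0.88. That median lay between -0.94 and -0.61 when single libraries were left out. edgeR called 0 and DESeq2 called 3 lower. Lamb3, a chain of the laminin on which epithelia rest, had 248 and 172 CPM in controls and 94.5 and 26.8 CPM in knockouts (adjusted p = 0.212 in edgeR and 0.0201 in DESeq2). Ppl, the gene of periplakin, had 5.01 and 13.0 against 1.90 and 1.85 CPM (0.209 and 0.0446). The hemidesmosome integrin genes Itga6 (51.9 and 36.5 against 22.6 and 11.2 CPM) and Itgb4 (42.6 and 50.0 against 29.4 and 26.1 CPM) did not overlap between groups. Col17a1, a hemidesmosome collagen, and Jup, the gene of plakoglobin, did not overlap either. Pkp1, a plakophilin gene of desmosomes, overlapped, as Dsp did. On the higher side, Dsg2, a desmosomal cadherin also found outside stratified epithelia, had 0.626 and 1.40 against 4.36 and 3.92 CPM, and Cd151, a tetraspanin gene, 69.4 and 103 against 159 and 147 CPM. None of these genes passed edgeR (adjusted p of 0.209 or more).

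Adherens and tight junction genes were divided. Of 18 tested, both knockouts were below both controls in 7, against 24.9% of all tested genes, and above in 5, against 25.8%. The list median was -0.20, or -0.56 without knockout 1 and -0.06 without knockout 2. Cldn1, a claudin of epithelial barriers, had 97.7 and 49.3 CPM in controls and 23.2 and 11.8 CPM in knockouts, 4.2-fold lower in the fit (adjusted p = 0.165 in edgeR and 0.00301 in DESeq2). Tjp3, a tight junction scaffold gene, had 17.4 and 7.0 against 1.54 and 0.504 CPM, 11.8-fold lower (0.165 and 0.000475). Cdh3, the gene of P-cadherin, another cadherin of basal epithelium, overlapped between groups at 28.1 and 23.4 against 30.4 and 15.2 CPM. Ctnna1, the gene of alpha-catenin, which most cell types use, was higher at 451 and 415 against 224 and 346 CPM (edgeR adjusted p = 0.448).

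Epithelial transcription and splicing factors were tested in 16 of 16. Both knockouts were below both controls in 2, against 24.9% of all tested genes, and above in 5, against 25.8%. The list median was 0.45. Without knockout 1 this median was -0.01. Elf3, an ETS factor of epithelia, had 0 and 2 counts in controls against 79 and 45 for the knockouts (adjusted p = 0.173 in edgeR and 0.00849 in DESeq2). Tfap2a, an AP-2 factor of ectoderm and neural crest, had 1.95 and 1.91 against 6.77 and 8.74 CPM.

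The list of dental epithelial stem and transit-amplifying genes was mixed. Of 15 tested, both knockouts were below both controls in 3, against 24.9% of all tested genes, and above in 5, against 25.8%. The list median was -0.22. It was positive without control 1 (0.32), control 2 (0.19) or knockout 2 (0.13). Lgr5, a marker of several epithelial stem cells that is also made by other cells, had 46.7 and 126 CPM in controls and 15.0 and 5.55 CPM in knockouts (adjusted p = 0.161 in edgeR and 3.4e-05 in DESeq2). Cd24a, a surface glycoprotein gene of epithelial and blood cells, had 437 and 244 against 119 and 66.9 CPM (0.165 and 0.00261). Fgfr2, the FGF receptor whose epithelial form serves the cervical loop and whose other form is mesenchymal, had 26.2 and 36.5 against 89.7 and 168 CPM (0.159 and 0.00112). Gene counts do not separate these forms. Bmi1, a Polycomb gene required by incisor stem cells, stood at 11.1 and 13.7 against 17.9 and 16.1 CPM, and Lrig1 overlapped.

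**Figure D4:**
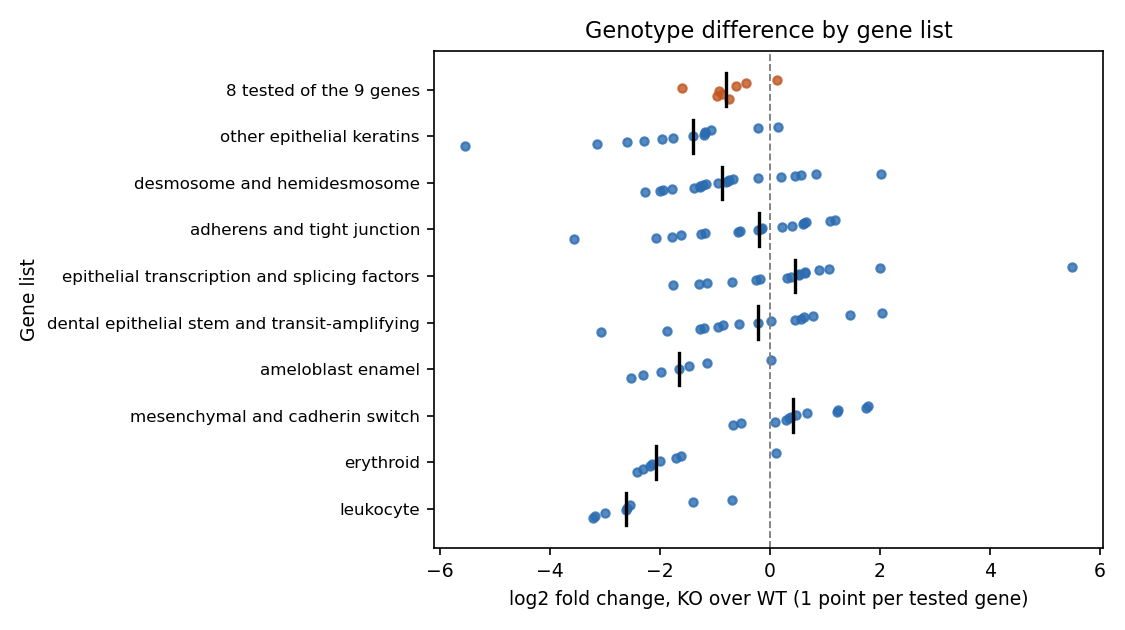
Log2 fold change, knockout over control, of each tested gene (points) in the described genes and in 9 fixed lists, with black bars at the list medians and a dashed line at the median of all tested genes. The keratin and desmosome medians lie at -1.39 and -0.88, those of the erythroid and leukocyte lists at -2.07 and -2.61, and that of the mesenchymal list at 0.42; the leukocyte and mesenchymal medians become -1.57 without control 1 and 1.35 without control 2.

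Enamel genes had a median of -1.66, with both knockouts below both controls in 5 of 7, against 24.9% of all tested genes. The enamel median was -4.21 without knockout 1 and -0.99 without knockout 2. Ambn overlapped between groups. Amelx, the amelogenin gene, had 7421 and 2410 CPM in controls and 2395 and 80.0 CPM in knockouts, so control 2 and knockout 1 were nearly equal (adjusted p = 0.495 in edgeR and 0.627 in DESeq2). Of 12 mesenchymal genes, both knockouts were above both controls in 6, against 25.8% of all tested genes, and below in 0. The mesenchymal count above was 11 without control 2, and the count below was 4 without control 1. With fewer libraries a separation is easier, and the share of all tested genes was not computed for these settings. The median of that list was 0.42, and 1.35 without control 2. Snai1, a repressor known to act on the gene of E-cadherin in other settings, had 31.4 and 47.7 CPM in controls and 135 and 130 CPM in knockouts (adjusted p = 0.152 in edgeR and 0.00269 in DESeq2). Its relative Snai2 overlapped between groups. Cdh2, the gene of N-cadherin, stood at 36.3 and 27.7 against 37.3 and 40.9 CPM (edgeR adjusted p = 0.756). Whether any of these genes bears on the level of Cdh1 was not tested.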

How the data were processed

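The authors deposited 1 table of raw counts, with a row for each Ensembl gene and a column for each of the 4 libraries. The tools named in the submitters' processing notes are featureCounts 2.0.1, the aligner Bowtie2 2.3.5.1 and, for trimming, Trim Galore 0.6.6, with the build GRCm38. Annotation release, strand setting and read length: not given in the sources used here. Such libraries, amplified from oligo-dT cDNA, do not mark strand or molecules. Of the 55487 IDs, 55141 were found in GENCODE M21, which gave symbols, coordinates and exon lengths. Genotype was tested as the sole term by quasi-likelihood in edgeR 4.0.16 under R 4.3.3, two-sided and with TMM scaling, on the 17128 genes kept by filterByExpr. Benjamini-Hochberg adjustment ran over all of them, with a threshold of 0.05, and intervals are 95%. It was tested on simulated data. The biological coefficient of variation was 49.2%. DESeq2 1.42.0, limma-voom (limma 3.58.1), other scalings and filters, a replicate block and each library left out were alternatives; a group left with 1 library is assumed to vary like the other. Likeness is the Euclidean distance between centred log2 CPM profiles (prior count 2). Beside the 9 members, the genes named from each list were the most abundant per kilobase, up to 2 with the smallest p in each direction, and a fixed set. Not all of them are printed. The members and lists were chosen with earlier results of these data known.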

Additional observations from a re-analysis of the deposited data

How the results depend on the processing

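No member passed an adjusted p of 0.05 in any of 88 alternative values for the 8 tested members (smallest adjusted p = 0.0897, Cdh1 in DESeq2), and 79 kept their direction. Dsp turned to -0.011 in limma-voom and to -0.012 with the replicate block, and Krt17 to -0.26 and -0.32. With 1 library left out, values ranged from -1.30 to -0.24 for Krt5, -1.44 to -0.27 for Krt14, -1.77 to 0.24 for Krt15, -1.83 to 1.42 for Krt17, -2.39 to -1.04 for Cdh1, -1.94 to 0.94 for Epcam, -1.14 to 0.10 for Trp63 and -0.98 to 0.78 for Dsp. Epcam was also positive without knockout 2 (0.11), and Dsp was -0.31 without control 1. In these left-out runs the members lower in every knockout than in every control numbered 3 to 5, and those higher 0 to 2. Under the other scalings they numbered 2 and 0, as in the main fit. Fewer libraries make a separation easier, and the share of all tested genes was not computed for the left-out runs. Over all genes, edgeR called 449 higher and 1005 lower without the low-count filter, DESeq2 472 and 990, and edgeR with the replicate block 59 and 185; the cause was not tested. With 1 library left out it called 0 to 215 higher and 0 to 703 lower. The block rests only on the shared replicate numbers: deviations of the libraries numbered 1 correlated across genes at 0.145, and with 2 pairs this does not establish a pairing. The block changed no call among the members. Without the filter and in DESeq2 the median of all genes shifted by -0.22 and -0.23, with 31364 genes in place of 17128. What made the median shift was not tested. At this depth Sox2 (0 counts) could not be tested.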

Other observations

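Other epithelial genes also differed between the libraries of a group by more than between groups; they were chosen after their values were seen. Shh, a signal of the transit-amplifying dental epithelium, had 171 counts in control 1 and 5 in control 2, and 103 in knockout 1 and 0 in knockout 2, the same order as Epcam. Krt8 was likewise higher in control 1 and knockout 1. Igfbp5, a secreted IGF-binding protein gene, had the order of Krt15, with 180 and 435 CPM in controls 1 and 2 and 78.4 and 337 CPM in knockouts 1 and 2. Krt4, a keratin of the inner lining of the mouth, had 271 counts in control 2, 68 in knockout 1 and 0 in the other libraries. Krt13, its type I partner, had 77 counts in control 2 and 8 or fewer elsewhere.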
